A study of Mus musculus with 12 samples.

Results

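Insulin-like growth factors and their binding proteins were followed in the epithelial cells that stay on the mouse lens capsule once fiber cells are taken out, which models cataract surgery. The set held 9 of the 24147 genes in the deposited count files, matched by gene symbol: the binding protein genes Igfbp2, Igfbp3, Igfbp4, Igfbp5, Igfbp6 and Igfbp7, the ligand genes Igf1 and Igf2, and the receptor gene Igf1r. All 9 passed the filter on low counts, as did 14560 genes in all. There were 4 groups of 3 libraries, collected 48 h or 0 h after fiber cell removal from FNcKO and WT mice: FNcKO 48 h, WT 48 h, FNcKO 0 h, and, last, WT 0 h. FNcKO mice carried a conditional knockout of fibronectin (Fn1) and were of mixed strain (C57BL/6, 129, FVB/N), whereas WT mice were wild type C57BL/6. All mice were 2 months old. The sources used here do not give the Cre driver, the deleted exons, or how many lenses or animals made up a library. The series set out to learn what fibronectin does in the clouding of the remaining capsule after cataract surgery.

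IGF1 and IGF2 are secreted peptides that signal mainly through the receptor tyrosine kinase IGF1R to the PI3K-AKT and MAP kinase pathways. IGFBP2 to IGFBP6 bind these ligands with high affinity in the extracellular space, where they can hold them away from the receptor or deliver them near it, until proteases such as pappalysins cleave the carrier. IGFBP7 is a secreted relative with low affinity for IGFs. In the lens, insulin-like growth factors are known as stimuli of epithelial cell division and of fiber cell differentiation.

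Promoter sequences are shown for the 4 binding protein genes that passed the threshold over time in both genotypes. Each is the 250 bases before a RefSeq transcription start (build GRCm38.p6, the assembly also called mm10), written 5′ to 3′ on the strand of the gene. Capitals mark matches on either strand to 4 motifs. The TATA box was searched as TATAAA. The GC box was searched as GGGCGG. The CCAAT box was searched as CCAAT. The AP-1 site was searched as TGANTCA. In the windows of the 9 members no match overlapped a match to another motif.
Igfbp3, chr11:7213924-7214173, minus strand: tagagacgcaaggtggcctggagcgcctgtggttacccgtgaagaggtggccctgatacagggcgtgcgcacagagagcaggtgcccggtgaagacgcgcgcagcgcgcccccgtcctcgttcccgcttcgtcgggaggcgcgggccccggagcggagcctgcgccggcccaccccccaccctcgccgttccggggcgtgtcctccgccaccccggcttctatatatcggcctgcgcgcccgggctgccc
Igfbp2, first start, chr1:72824230-72824479, plus strand: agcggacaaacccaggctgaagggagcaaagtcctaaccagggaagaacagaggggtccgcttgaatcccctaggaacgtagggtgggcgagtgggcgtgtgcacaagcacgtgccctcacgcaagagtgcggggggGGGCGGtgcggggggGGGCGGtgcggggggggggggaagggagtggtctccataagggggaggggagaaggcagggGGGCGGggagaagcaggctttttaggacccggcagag
Igfbp4, chr11:99040994-99041243, plus strand: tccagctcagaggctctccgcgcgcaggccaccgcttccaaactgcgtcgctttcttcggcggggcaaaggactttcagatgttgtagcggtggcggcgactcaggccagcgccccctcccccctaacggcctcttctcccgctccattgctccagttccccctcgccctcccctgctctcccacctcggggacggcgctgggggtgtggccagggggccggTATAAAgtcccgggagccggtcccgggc
Igfbp7, chr5:77408046-77408295, minus strand: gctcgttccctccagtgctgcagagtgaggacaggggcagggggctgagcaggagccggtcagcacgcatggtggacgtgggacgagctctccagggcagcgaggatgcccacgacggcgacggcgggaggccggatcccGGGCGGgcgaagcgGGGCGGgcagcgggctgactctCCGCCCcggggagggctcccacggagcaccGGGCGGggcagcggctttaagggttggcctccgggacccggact
The Igfbp3 window held none of the 4 motifs, the Igfbp2 window held 3 GC boxes, the Igfbp7 window held 4, and the Igfbp4 window held a TATA box from 28 to 23 bases before the start. Among 32841 mouse promoter windows of 250 bases, 12.4% held a TATA box, 32.7% a GC box, 33.9% a CCAAT box and 6.75% an AP-1 site. Windows were found for 9 of the 9 members, 13 in all. An AP-1 match lay 39 to 33 bases before the second annotated start of Igfbp2, and another lay 37 to 31 bases before the RefSeq start used for Igf1. Both of these starts lie inside the coordinates of the gene in the deposited files. These letter matches describe the windows and carry no measurement of binding.

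Libraries held 8368160 to 10862573 counts, and levels are given as counts per 1e6 (CPM) after TMM scaling. Fn1 itself had 146, 298 and 688 CPM in FNcKO at 48 h and 1515, 528 and 979 CPM in WT at 48 h, against 16.8, 9.81 and 8.32 CPM in FNcKO at 0 h and 18.96, 23.1 and 15.5 CPM in WT at 0 h. The genotypes overlapped at both times. A count over the whole gene also takes in exons that were kept, so Fn1 does not check the genotype labels. In a combined table also deposited, the column named for WT 0 h replicate 1 equals the separate file of FNcKO 0 h replicate 1, and the separate files were used for all values here. All 8 lens epithelial markers were detected in every group, and their summed level was lower at 48 h than at 0 h, with 1181 to 2144 CPM against 3820.1 to 4330.3 CPM in FNcKO and 1358 to 1692 CPM against 2780.4 to 3799 CPM in WT. The 11 lens fiber markers summed to 437 to 4487 CPM against 8256 to 14512 CPM in FNcKO and 686 to 2158 CPM against 6551 to 10112 CPM in WT. Macrophage markers summed to 182 to 424 CPM at 48 h against 47.7 to 97.2 CPM at 0 h in FNcKO, and 266 to 778 CPM against 65.0 to 146 CPM in WT. Fibroblast and stroma markers summed to 420.3 to 457 CPM at 48 h against 329 to 362 CPM at 0 h in FNcKO, and 737 to 1017 CPM against 409 to 514 CPM in WT. Vascular endothelial markers summed to 28.8 to 68.6 CPM against 25.04 to 35.7 CPM in FNcKO, with 6 of 10 genes higher and 1 lower past the threshold given below, and to 52.1 to 103 CPM against 32.4 to 55.7 CPM in WT, with 4 higher and 0 lower. Past that threshold, 6 of 11 macrophage genes were higher at 48 h and 1 lower in FNcKO, and 5 higher and 0 lower in WT. Of 7 tested fibroblast and stroma genes, 4 were higher and 1 lower in FNcKO, and 3 higher and 2 lower in WT. Of the 8 lens epithelial genes, 1 was higher and 5 were lower in each genotype. Of the 11 lens fiber genes 0 were higher, and 7 were lower in FNcKO and 8 in WT. Beside these marker counts, 14.9% of all tested genes were higher and 9.9% lower in FNcKO, and 19.1% and 13.5% in WT. In such bulk libraries, fewer cells of a type and less RNA per cell cannot be told apart. In FNcKO 0 h replicate 3, genes under 1892 bases were shifted by 0.33 and genes over 4475 bases by -0.27 (median log2 deviation), and the next largest shift was -0.18, of the short genes in FNcKO 0 h replicate 2.

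The members were picked with the changes in these comparisons known, so the adjusted p-values below describe where each member stood in the fit over all genes and are not independent tests of the set. Past the threshold means an adjusted p under 0.05 (edgeR, Benjamini-Hochberg over the 14560 genes). At 48 h against 0 h in FNcKO, 1 member was higher and 5 were lower, while 24.8% of all tested genes passed, 14.9% higher and 9.9% lower. In WT, 2 members were higher and 2 were lower, while 32.6% of all tested genes passed, 19.1% higher and 13.5% lower. The median log2 change of the 9 members was -0.84 in FNcKO and -0.83 in WT, beside 0.0018 and 0.016 over all tested genes. The 2 comparisons over time share no library. Igfbp3 was higher and Igfbp4 and Igfbp7 were lower at 48 h in both genotypes, whereas Igfbp2 was lower in FNcKO and higher in WT.

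**Figure D1:**
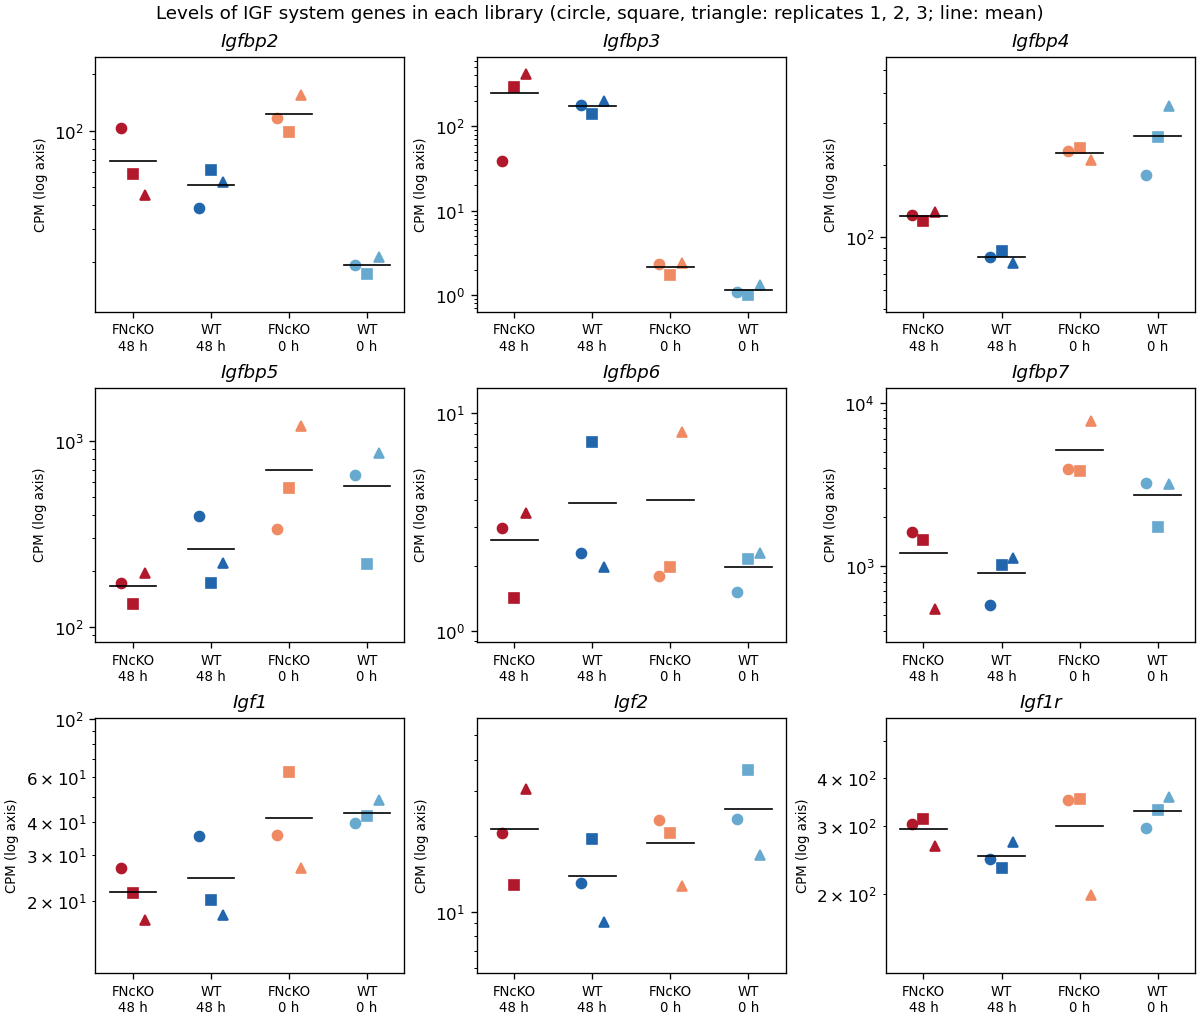
Level of each of the 9 genes in CPM (log axis) in the 12 libraries, grouped by genotype and time; circles, squares and triangles are replicates 1, 2 and 3 and lines are group means. Igfbp3 stands near 1 to 2.4 CPM in the 0 h libraries and between 39.1 and 414 CPM at 48 h, and Igfbp2 in WT at 0 h, 17.3 to 21.3 CPM, lies below all other libraries.

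Igfbp3, the most abundant IGF carrier of blood plasma, went up most of the 9 genes in both genotypes. It lies on chromosome 11 from 7206091 to 7213923 (mm10, as the other positions here). Igfbp3 had 39.1, 293 and 414 CPM in FNcKO at 48 h, against 2.35, 1.73 and 2.44 CPM in FNcKO at 0 h. In WT, Igfbp3 had 179.9, 140.2 and 202 CPM at 48 h, against 1.10, 1.02 and 1.33 CPM at 0 h. Every 48 h library lay above every 0 h library, while FNcKO 48 h replicate 1 was far below the other 48 h libraries. The rise was 114-fold in FNcKO (log2 6.83 with SE 0.79, edgeR, adjusted p = 0.000274) and 150.4-fold in WT (log2 7.23 with SE 0.82, edgeR, adjusted p = 0.00016). The 0 h values rest on 15 to 21 counts in FNcKO and 10 to 11 counts in WT. In FNcKO 48 h replicates 1, 2 and 3, with Igfbp3 at 39.1, 293 and 414 CPM, the lens fiber markers summed to 4487, 2419.8 and 437 CPM and Fn1 stood at 146, 298 and 688 CPM. The summed macrophage and fibroblast markers were also higher in every 48 h library than in every 0 h library of the genotype, and the part of these genes in the Igfbp3 values was not tested.

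Between genotypes Igfbp3 did not pass the threshold. At 48 h the libraries overlapped (log2 0.51 with SE 0.57, edgeR, adjusted p = 1). At 0 h each FNcKO library lay above each WT library at these low counts (log2 0.91 with SE 0.92, edgeR, adjusted p = 0.702). Averaged over both times the log2 difference was 0.71 (SE 0.54, edgeR, adjusted p = 0.664). Without FNcKO 48 h replicate 1 it was 0.97 and passed the threshold (edgeR, adjusted p = 0.0358). The 48 h responses of the genotypes differed by -0.40 (log2, FNcKO minus WT, 95% interval -2.77 to 1.97, edgeR, adjusted p = 0.972).

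Igfbp2, a carrier with a preference for IGF2 that also binds integrins, was the one member past the threshold between genotypes. It lies on chromosome 1 from 72824480 to 72852471. Igfbp2 had 117, 98.3 and 154 CPM in FNcKO at 0 h, against 19.3, 17.3 and 21.3 CPM in WT at 0 h. The highest value of this gene of 1327 bases was in FNcKO 0 h replicate 3, where short genes were shifted upward. The part of gene length in it was not tested. All FNcKO libraries exceeded all WT libraries at 0 h. The difference was 6.38-fold (log2 2.67 with SE 0.30, edgeR, adjusted p = 0.00259), in a comparison in which 0.144% of tested genes passed, 0.0755% higher and 0.0687% lower. Without WT 0 h replicate 2 the log2 value was 2.60 and missed the threshold (edgeR, adjusted p = 0.0596), and without FNcKO 0 h replicate 3 it was 2.49 (edgeR, adjusted p = 0.0161). With the combined table's column taken as WT 0 h replicate 1, and FNcKO 0 h replicate 1 left out, it was 1.29 (edgeR, adjusted p = 0.564). That column holds the counts filed separately as FNcKO 0 h replicate 1, with Igfbp2 at 117 CPM. A smaller difference was thus built into that setting, which does not check the result. At 0 h the corneal epithelial marker list, summed, was also higher in FNcKO, with 1783 to 2666 CPM against 742 to 1115 CPM in WT. Nearly all of that sum was Aldh3a1, 2163 ± 446 CPM in FNcKO and 876 ± 203 CPM in WT (SD, n = 3 each). The keratin genes of that list were low at 0 h: Krt4 averaged 16.7 CPM in FNcKO and 6.09 CPM in WT, Krt5 averaged 4.23 CPM in FNcKO and 1.06 CPM in WT, and Krt12 averaged 0.570 CPM in FNcKO and 0.879 CPM in WT. Krt14 averaged 0.161 CPM in FNcKO and was at 0 in all WT 0 h libraries. Of the 4 tested genes of the list, 3 were higher in mean in FNcKO, with log2 differences of 1.30 for Aldh3a1, 1.45 for Krt4 and 1.97 for Krt5, and none passed (edgeR, adjusted p = 0.268, 0.390 and 0.533). Their part in the Igfbp2 difference was not tested.

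At 48 h Igfbp2 had 103, 58.6 and 45.4 CPM in FNcKO and 38.6, 61.8 and 53.5 CPM in WT. These libraries overlapped, and the genotypes did not pass the threshold (log2 0.43, SE 0.28, 95% interval -0.17 to 1.02, edgeR, adjusted p = 1), in a comparison in which 0.24% of tested genes passed, 0.0412% higher and 0.199% lower. Averaged over both times Igfbp2 was 2.93-fold higher in FNcKO (log2 1.55 with SE 0.20, edgeR, adjusted p = 0.00415), the one member among the 0.481% of tested genes that passed, 0.179% higher and 0.302% lower. With the combined table's column, which counts that FNcKO library as WT, that average was 0.86 (edgeR, adjusted p = 0.628). The log2 change over time in WT was then -0.013 (edgeR, adjusted p = 0.989). Genotype, strain background and closeness to Fn1 cannot be told apart for this gene.

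Over time Igfbp2 fell in FNcKO (log2 -0.84 with SE 0.28, edgeR, adjusted p = 0.0426), although FNcKO 48 h replicate 1 overlapped the 0 h libraries. In WT it rose 2.66-fold (log2 1.41 with SE 0.29, edgeR, adjusted p = 0.00272), and each 48 h library lay above each 0 h library. The FNcKO fall missed the threshold without any one of WT 0 h replicates 1, 2 or 3, WT 48 h replicate 3, FNcKO 0 h replicates 1 or 3, or FNcKO 48 h replicates 2 or 3 (edgeR, adjusted p = 0.0506 to 0.165). It also missed it with libraries scaled to total counts (log2 -0.54, edgeR, adjusted p = 0.12), in a fit of the FNcKO libraries only (edgeR, adjusted p = 0.0801) and with the combined table's column (edgeR, adjusted p = 0.433). Without FNcKO 48 h replicate 1 it was -1.24 (edgeR, adjusted p = 0.00263). The 48 h responses differed by -2.25 on the log2 scale, FNcKO minus WT (SE 0.40, unadjusted p = 7.79e-05, edgeR, adjusted p = 0.284). In that comparison 0% of tested genes passed with edgeR, and 735 of the 14560 had an unadjusted p under 0.05. With DESeq2 28 genes passed. Igfbp2 passed with DESeq2 (adjusted p = 0.000563), and with edgeR without FNcKO 48 h replicate 1 (log2 -2.66, adjusted p = 0.0308).

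**Figure D2:**
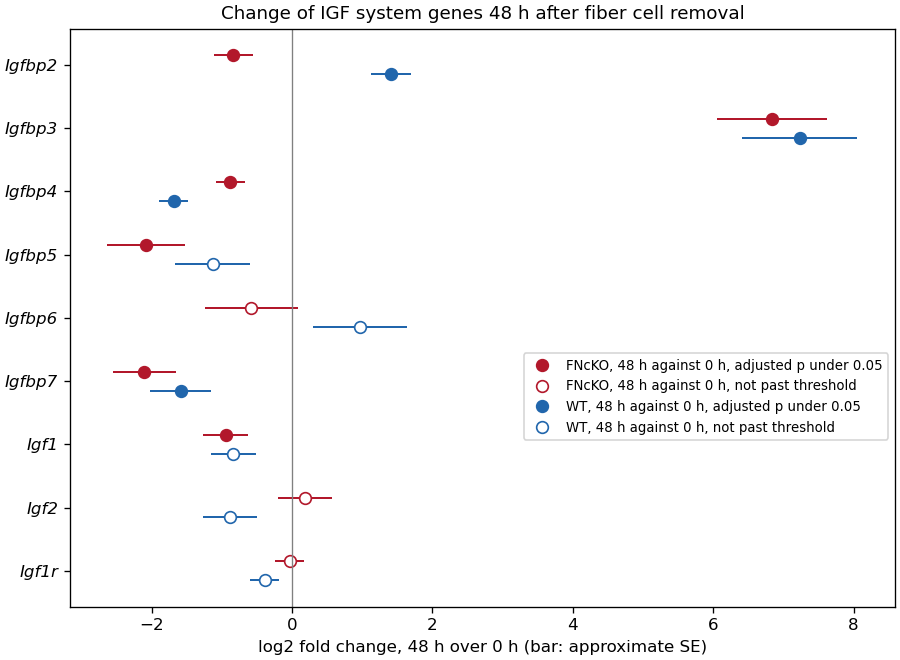
Log2 fold change of each member at 48 h over 0 h in FNcKO (red) and WT (blue), with approximate SE as bars and filled circles for an adjusted p under 0.05. Igfbp3 lies at 6.83 and 7.23, and Igfbp2 lies at -0.84 in FNcKO and 1.41 in WT.

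Fn1 lies on chromosome 1 from 71585473 to 71653234, and Igfbp2 begins 1171.2 kb beyond its end. Igfbp5 follows Igfbp2 after 5.6 kb, on the opposite strand. Of 25 genes in the files within 2 megabases of Fn1, 13 were tested. In FNcKO against WT, 0 of these 13 passed at 48 h, beside 0.24% of all tested genes. Igfbp2 was the 1 gene that passed at 0 h (7.69%) and in the average over both times. Of all tested genes, 0.144% passed at 0 h and 0.481% in that average. The 13 include Fn1 itself and Igfbp2, a member picked with its result known, so 7.69% is not a rate for the region. The neighbouring ribosomal protein gene Rpl37a had a log2 difference of 0.41 at 0 h (edgeR, adjusted p = 0.483), and Igfbp5 had 0.28 (SE 0.53, edgeR, adjusted p = 0.846).

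**Figure D3:**
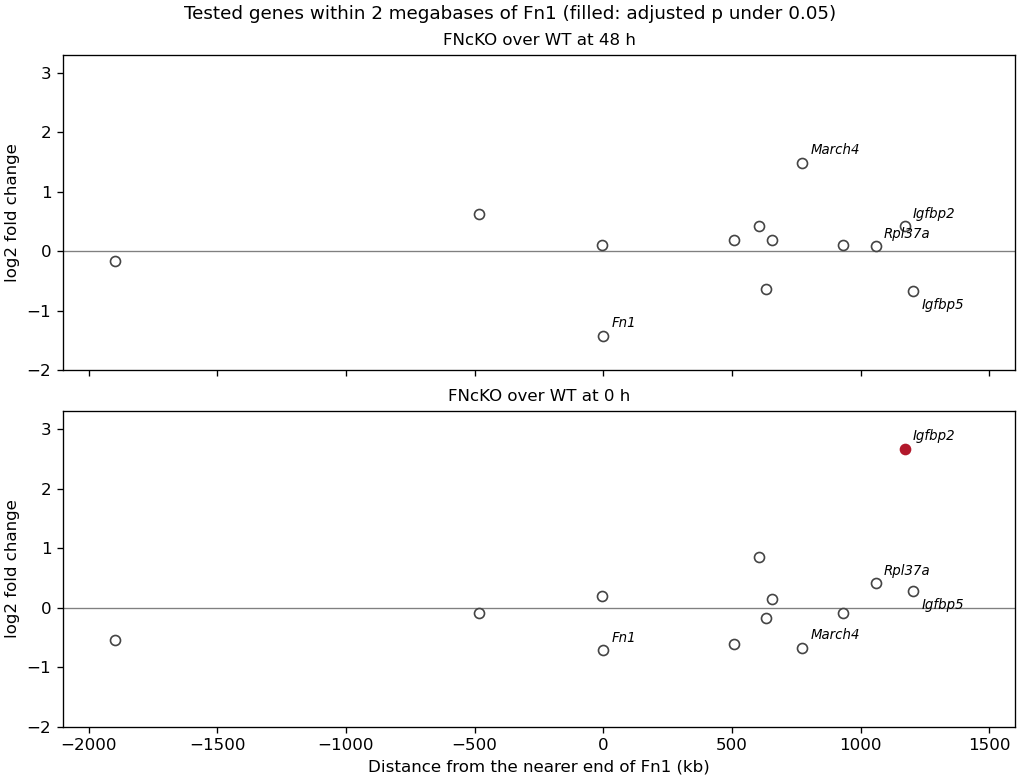
Log2 fold change of FNcKO over WT for the 13 tested genes within 2 megabases of Fn1, by distance from the nearer end of Fn1 in kb, at 48 h (top) and 0 h (bottom); a filled circle marks an adjusted p under 0.05. Igfbp2, at 2.67 in the lower panel, is the one filled circle.

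Igfbp7, Igfbp4 and Igfbp5 moved the other way from Igfbp3 over time. Igfbp7 (chromosome 5, 77349240 to 77408045) encodes a secreted, matrix-associated protein. Igfbp7 had 1613, 1445 and 542 CPM in FNcKO at 48 h, against 3935, 3822 and 7717 CPM at 0 h. In WT it had 577, 1014 and 1118 CPM at 48 h, against 3205, 1735 and 3192 CPM at 0 h. In both genotypes all 48 h libraries lay below all 0 h libraries. Igfbp7 fell 4.30-fold in FNcKO (log2 -2.10 with SE 0.45, edgeR, adjusted p = 0.00442) and 3.00-fold in WT (log2 -1.59 with SE 0.44, edgeR, adjusted p = 0.0147). The WT fall missed the threshold without WT 48 h replicate 1 (log2 -1.34, edgeR, adjusted p = 0.0612). At 0 h all FNcKO libraries were above all WT libraries, but the difference did not pass (log2 0.93 with SE 0.43, edgeR, adjusted p = 0.454). FNcKO 0 h replicate 3, where short genes were shifted upward, held the highest value of this gene of 1213 bases. The same library held the highest values of Igfbp2 (1327 bases) and Igfbp6 (1289 bases), and also of the long gene Igfbp5 (5854 bases). The part of gene length in these values was not tested. The lens epithelial and fiber marker sums were lower at 48 h as well, and their part in the fall of Igfbp7 was not tested.

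Igfbp4 (chromosome 11, 99041260 to 99052643) encodes a carrier that the pappalysin PAPP-A cleaves. Igfbp4 had 123, 116 and 126 CPM in FNcKO at 48 h, against 228, 235 and 209 CPM at 0 h. In WT it had 82.0, 87.0 and 77.6 CPM at 48 h, against 181, 260.2 and 353 CPM at 0 h. The times did not overlap in either genotype. Igfbp4 fell 1.84-fold in FNcKO (log2 -0.88 with SE 0.20, edgeR, adjusted p = 0.00649) and 3.22-fold in WT (log2 -1.69 with SE 0.20, edgeR, adjusted p = 8.58e-05). The FNcKO fall missed the threshold when libraries were scaled to total counts, which moves the median of all genes by 0.29 (log2 -0.60, edgeR, adjusted p = 0.0676). At 48 h all FNcKO libraries exceeded all WT libraries. Groups that did not overlap at 48 h were found for 1 of the 9 members and for 9.74% of tested genes. That difference did not pass (log2 0.57 with SE 0.20, edgeR, adjusted p = 0.636), nor did the responses differ past the threshold (log2 0.81 with SE 0.28, edgeR, adjusted p = 0.945).

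Igfbp5 (chromosome 1, 72858065 to 72874865) encodes a carrier that binds extracellular matrix. Igfbp5 had 171, 132 and 194 CPM in FNcKO at 48 h, against 335, 557 and 1204 CPM at 0 h. In WT lenses it had 396, 171 and 220 CPM at 48 h, against 651, 217 and 856 CPM at 0 h. The FNcKO times did not overlap, and the WT times did through the low 0 h replicate 2. Igfbp5 fell 4.22-fold in FNcKO (log2 -2.08 with SE 0.55, edgeR, adjusted p = 0.0184). That call was lost without FNcKO 0 h replicate 3 (log2 -1.46, edgeR, adjusted p = 0.0697), FNcKO 48 h replicate 2 (0.0581) or its replicate 3 (0.0529). In WT the log2 change was -1.13 (SE 0.54, edgeR, adjusted p = 0.128), and it was -1.56 and past the threshold without WT 0 h replicate 2 (edgeR, adjusted p = 0.0335). It also passed with DESeq2 (log2 -1.16, adjusted p = 0.0467). The genotypes overlapped at both times.

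Igfbp6 (chromosome 15, 102144186 to 102149512), whose product prefers IGF2 over IGF1, was low throughout, with 13 to 76 counts in a library. Igfbp6 had 2.96, 1.42 and 3.49 CPM in FNcKO at 48 h and 2.28, 7.39 and 1.97 CPM in WT at 48 h, against 1.79, 1.96 and 8.18 CPM in FNcKO at 0 h and 1.505, 2.14 and 2.29 CPM in WT at 0 h. One library in each of 2 groups was high, WT 48 h replicate 2 and FNcKO 0 h replicate 3, and all groups overlapped. The log2 change over time was -0.58 in FNcKO (SE 0.67, edgeR, adjusted p = 0.571) and 0.97 in WT (SE 0.67, edgeR, adjusted p = 0.284).

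Per length, Igfbp7 was the highest binding protein transcript in every group. The share of each gene was taken of the summed CPM per kilobase of gene length (RPKM) of the 6 binding protein genes. Igfbp7 made up 76.9% ± 14.97 of that sum in FNcKO at 48 h and 77.9% ± 7.51 in WT at 48 h, against 92.7% ± 0.981 in FNcKO at 0 h and 90.0% ± 2.12 in WT at 0 h (SD, n = 3 each). Igfbp3 made up 10.7% ± 10.99 in FNcKO at 48 h and 7.91% ± 2.58 in WT at 48 h, against 0.0209% ± 0.00638 in FNcKO at 0 h and 0.0200% ± 0.00529 in WT at 0 h. In FNcKO at 48 h the share of Igfbp3 ran from 1.06% to 22.7% and that of Igfbp7 from 59.8% to 87.8%. Igfbp2 made up 2.13% ± 0.401 in FNcKO at 0 h and 0.621% ± 0.167 in WT at 0 h. These shares are of transcripts and were not tested.

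**Figure D4:**
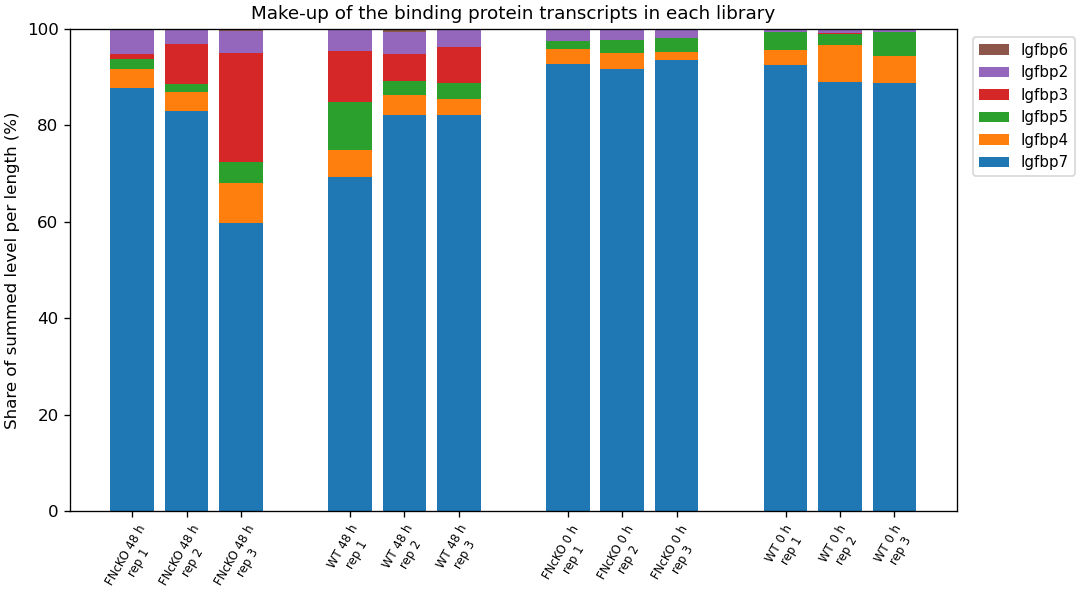
Share in percent of each of the 6 binding protein genes in their summed level per length, 1 bar per library, grouped by genotype and time. Igfbp7 is the largest part of every bar, from 59.8% in FNcKO 48 h replicate 3 to 93.7% in FNcKO 0 h replicate 3, and Igfbp3 is visible in the 48 h bars only.

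Across all members the order per length changed with time. In WT at 0 h the mean levels were 2235 RPKM for Igfbp7, 128 for Igfbp4, 98.1 for Igfbp5, 27.4 for Igf1r, 14.6 for Igfbp2, 6.02 for Igf2, 5.58 for Igf1, 1.54 for Igfbp6 and 0.471 for Igfbp3. The ranges of Igfbp4 and Igfbp5 overlapped there, as did those of Igf2 and Igf1. In WT at 48 h Igfbp3 stood next after Igfbp7, at 71.2 ± 12.8 RPKM against 744 ± 236 RPKM for Igfbp7 (SD, n = 3). Igfbp5, Igfbp4 and Igfbp2 followed at 44.8, 39.8 and 38.7 RPKM with overlapping ranges, and the range of Igfbp5 also overlapped that of Igfbp3. In FNcKO at 0 h Igfbp2 averaged 92.9 ± 21.6 RPKM, within the range of Igfbp5 at 119 ± 77.1 RPKM. In FNcKO at 48 h Igfbp3 had 102 ± 78.3 RPKM, and its range of 16.0 to 169 RPKM took in the means of Igfbp4, Igfbp2, Igfbp5 and Igf1r.

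Of the ligands, Igf1 (chromosome 10, 87859056 to 87937047) had 26.7, 21.4 and 16.9 CPM in FNcKO at 48 h, against 35.8, 62.7 and 26.8 CPM at 0 h. In WT it had 35.4, 20.2 and 17.6 CPM at 48 h, against 39.7, 42.3 and 48.8 CPM at 0 h. Each 48 h library lay below each 0 h library of its genotype, in FNcKO by a small margin. Igf1 fell by 0.95 on the log2 scale in FNcKO (SE 0.32, edgeR, adjusted p = 0.0459). That call was lost without any one of WT 0 h replicates 1, 2 or 3, WT 48 h replicate 2, FNcKO 0 h replicates 1 or 2, or FNcKO 48 h replicates 2 or 3 (edgeR, adjusted p = 0.0514 to 0.223), with a log2 value of -0.53 without FNcKO 0 h replicate 2. It was also lost with total counts (log2 -0.71, edgeR, adjusted p = 0.16), without a filter (0.0516), in a fit of the FNcKO libraries only (0.0634) and with the combined table's column (0.0764). In WT the log2 change was -0.83 (SE 0.32, edgeR, adjusted p = 0.0598). It passed without WT 48 h replicate 1 (log2 -1.20, edgeR, adjusted p = 0.0165), FNcKO 0 h replicate 2 (0.0302) or its replicate 3 (0.0365), and with DESeq2 (0.0379). The WT change also passed in a fit of the WT libraries only (edgeR, adjusted p = 0.0329) and with a replicate block (edgeR, adjusted p = 0.049). In 13 of the 19 alternatives it did not pass. The genotypes overlapped at both times.

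Igf2 (chromosome 7, 142650768 to 142661035) is an imprinted growth factor gene best known from fetal growth. Igf2 had 20.6, 12.8 and 30.7 CPM in FNcKO at 48 h, against 23.1, 20.4 and 12.6 CPM at 0 h. In WT it had 12.9, 19.4 and 9.13 CPM at 48 h, against 23.3, 36.5 and 16.7 CPM at 0 h. The times overlapped in both genotypes. The log2 change was 0.19 in FNcKO (95% interval -0.64 to 1.009, edgeR, adjusted p = 0.768) and -0.88 in WT (95% interval -1.71 to -0.055, edgeR, adjusted p = 0.0945). The WT value was -1.20 and passed the threshold without WT 48 h replicate 2 (edgeR, adjusted p = 0.0479). The antisense gene Igf2os overlaps Igf2 and held at most 3 counts in a library.

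H19, a noncoding RNA gene 72.6 kb from Igf2 in the same imprinted cluster, had 2.54, 1.31 and 3.60 CPM in FNcKO at 48 h, against 0.112, 0.577 and 0.143 CPM in FNcKO at 0 h. The WT libraries had 26.6, 2.43 and 17.4 CPM at 48 h, against 0, 0.714 and 0.241 CPM at 0 h. In both genotypes each 48 h library lay above each 0 h library. The log2 change of H19 was 3.07 in FNcKO (SE 1.05, edgeR, adjusted p = 0.0502). In WT it rose (log2 5.54 with SE 1.00, edgeR, adjusted p = 0.00152), and the fitted value was 4.95 without WT 0 h replicate 1, 6.92 without WT 0 h replicate 2 and 4.90 without WT 48 h replicate 1. The 0 h values of H19 rest on 0 to 7 counts. Between genotypes H19 did not pass at 48 h (log2 -2.63 with SE 0.81, edgeR, adjusted p = 0.459).

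The receptor gene Igf1r (chromosome 7, 67952257 to 68233667) passed the threshold in none of the 6 comparisons. Igf1r had 303, 313 and 266 CPM in FNcKO at 48 h, against 350.2, 353 and 199 CPM at 0 h. In WT it had 247, 234 and 272 CPM at 48 h, against 296, 330.3 and 358 CPM at 0 h. The FNcKO times overlapped through 0 h replicate 3, in which long genes were shifted downward, and the WT times did not overlap. The part of that shift in the Igf1r values was not tested. The log2 change was -0.032 in FNcKO (95% interval -0.48 to 0.42, edgeR, adjusted p = 0.934) and -0.39 in WT (95% interval -0.83 to 0.061, edgeR, adjusted p = 0.169). The WT value passed without FNcKO 0 h replicate 3 (log2 -0.41, edgeR, adjusted p = 0.0392).

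Between genotypes, 0 of the 9 members passed at 48 h and 1 passed at 0 h and in the average, as given above with the shares of all genes. The groups of 3 members did not overlap at 0 h, Igfbp2, Igfbp3 and Igfbp7, all higher in FNcKO, and 16.6% of tested genes had groups that did not overlap there. Over time the groups of 5 members did not overlap in FNcKO and those of 6 did not in WT, beside 37.5% and 51.5% of tested genes. For the difference of the 48 h responses, 0 of the 9 members passed with edgeR. At 48 h the summed markers of fibroblasts and stroma stood at 420.3 to 457 CPM in FNcKO and 737 to 1017 CPM in WT. Of the 7 tested, Col1a1 was lower in FNcKO past the threshold and 6 did not pass, beside 0.199% of all tested genes lower. The corneal stroma gene Kera was not tested and stood at 0 in all libraries of WT 48 h, FNcKO 0 h and WT 0 h. The summed markers of pigment epithelium, iris and ciliary body stood at 17.7 to 67.4 CPM in FNcKO and 171.5 to 438 CPM in WT at 48 h, and at 151 to 183 CPM in FNcKO and 213 to 296 CPM in WT at 0 h. Of these 8 markers, 3 were lower in FNcKO past the threshold at 48 h (Tyr, Tyrp1 and Mlana), beside 0.199% of all tested genes lower. At 0 h 0 passed, beside 0.144% of all tested genes. Averaged over both times 3 were lower (Tyrp1, Dct and Mlana), beside 0.302%. The 8 photoreceptor markers summed to 289 to 3013 CPM in FNcKO and 1133 to 3385 CPM in WT at 48 h. At 0 h they summed to 1126 to 4063 CPM in FNcKO and 2026 to 6453 CPM in WT, and 0 of them passed in any comparison. The sum of 6453 CPM was in WT 0 h replicate 2, the lowest library of that group in Igfbp5 and Igfbp7. Its lens epithelial markers summed to 2780 CPM. The part of all these markers in the members' values was not tested.

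Further genes of the pathway came from lists chosen, like the members, with earlier results known. Of 10 other genes of the insulin and IGF family, 6 were tested. Over time 0 of these passed in FNcKO, beside 24.8% of all tested genes. In WT H19 was higher and the insulin receptor gene Insr was lower (log2 -0.58 with SE 0.21, edgeR, adjusted p = 0.0466), beside 19.1% and 13.5% of all tested genes. The Insr call was lost in 8 of the 12 fits that left out a library (edgeR, adjusted p up to 0.147). Igfals, which encodes the acid-labile subunit that joins IGFBP3 and IGF in a ternary complex, had 29.1, 14.6 and 1.90 CPM in FNcKO at 48 h, against 34.7, 29.2 and 37.0 CPM at 0 h (log2 -1.14 with SE 0.64, edgeR, adjusted p = 0.221). In WT Igfals had 8.09, 15.8 and 11.6 CPM at 48 h, against 28.5, 18.9 and 39.3 CPM at 0 h (log2 -1.28 with SE 0.64, edgeR, adjusted p = 0.149). Igf2r, which encodes the receptor that clears IGF2, had a log2 change of 0.31 in FNcKO (edgeR, adjusted p = 0.358) and 0.25 in WT (edgeR, adjusted p = 0.426). Igfbp1, the neighbour of Igfbp3 at 3.5 kb, held at most 7 counts in a library and was not tested.

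Of 10 genes for proteases that cut binding proteins and for inhibitors of these proteases, 3 were higher and 2 lower at 48 h in FNcKO, beside 14.9% and 9.9% of all tested genes, and 3 were higher and 0 lower in WT, beside 19.1% and 13.5%. Stc1, which encodes stanniocalcin 1, an inhibitor of pappalysins, rose 5.90-fold in FNcKO (log2 2.56 with SE 0.48, edgeR, adjusted p = 0.00231) and 8.87-fold in WT (log2 3.15 with SE 0.47, edgeR, adjusted p = 0.000452). Adam12, a metalloproteinase gene whose product cuts IGFBP3 and IGFBP5, rose 12.1-fold in FNcKO (log2 3.60 with SE 0.56, edgeR, adjusted p = 0.00109) and 19.3-fold in WT (log2 4.27 with SE 0.57, edgeR, adjusted p = 0.000359). The lysosomal protease gene Ctsd rose 3.20-fold in FNcKO and 4.29-fold in WT. Stc2, the gene of stanniocalcin 2, was lower in FNcKO (log2 -2.59 with SE 0.78, edgeR, adjusted p = 0.0271), at 0.106 to 0.845 CPM against 3.00 to 4.47 CPM at 0 h, and in WT its log2 change was -0.14. The FNcKO 48 h values of Stc2 rest on 1 to 8 counts. The Stc2 call was lost without FNcKO 0 h replicate 1 (edgeR, adjusted p = 0.0867), FNcKO 48 h replicate 2 (0.0543) or its replicate 3 (0.0966). Htra3, a secreted serine protease gene, was lower in FNcKO (log2 -1.27 with SE 0.37, edgeR, adjusted p = 0.0228), and that call was lost without FNcKO 0 h replicate 3 (0.0843), FNcKO 48 h replicate 2 (0.0508) or its replicate 3 (0.0725).

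Of 22 genes that carry IGF and insulin signals inside the cell, 4 were higher and 2 lower at 48 h in FNcKO, beside 14.9% and 9.9% of all tested genes, and 5 were higher and 4 lower in WT, beside 19.1% and 13.5%. Socs2, a gene for a feedback inhibitor of growth hormone and IGF signalling, rose 5.53-fold in FNcKO (log2 2.47 with SE 0.52, edgeR, adjusted p = 0.00417) and 12.2-fold in WT (log2 3.61 with SE 0.54, edgeR, adjusted p = 0.000362). The log2 value in FNcKO was 1.88 without replicate 3 of FNcKO 48 h. The 0 h values of Socs2 rest on 4 to 9 counts in FNcKO and 5 counts in each WT library. Ptpn1, a gene for a phosphatase of the insulin receptor, rose 2.51-fold in FNcKO and 2.20-fold in WT. Grb10, an imprinted gene for an adaptor that dampens these receptors, rose 3.79-fold in WT (log2 1.92 with SE 0.48, edgeR, adjusted p = 0.00996), and its log2 change in FNcKO was 1.35 (SE 0.49, edgeR, adjusted p = 0.065). Irs1, the main docking protein gene of both receptors, was lower in FNcKO (log2 -1.08, edgeR, adjusted p = 0.0295) and in WT (log2 -1.26, edgeR, adjusted p = 0.0115). The Irs1 call was lost in 4 of the 12 fits that left out a library in FNcKO (edgeR, adjusted p up to 0.0925) and without WT 48 h replicate 1 in WT (0.0508). The signalling genes Akt1 and Shc1 were also higher in both genotypes. Foxo1 was lower in both, and Gab1 and Pik3r3 were lower in WT. In FNcKO the Akt1 call was lost in 7 and the Shc1 call in 8 of the 12 fits. In WT the calls lost were Foxo1 in 7, Akt1 in 3 and Shc1 in 2 fits. Of 3 genes for IGF2 mRNA-binding proteins, Igf2bp1 was lower in both genotypes, beside 9.9% of all tested genes in FNcKO and 13.5% in WT. This Igf2bp1 call was lost in 7 of the 12 fits that left out a library in each genotype. None of the tested genes on these 4 lists passed between genotypes at 48 h, at 0 h or averaged, or for the difference of the responses (edgeR). Of all tested genes, 0.24%, 0.144%, 0.481% and 0% passed in these comparisons, so lists of this size were unlikely to hold a gene that passed.

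The genes most alike to a member were those with the highest Pearson r of log2 CPM over the 12 libraries, among 11552 genes of at least 5 CPM (11553 for Igfbp6). These values describe 4 groups seen together and carry no test. For Igfbp7 they were Pygl, liver glycogen phosphorylase, and Itm2b, an integral membrane protein (r = 0.99 each). For Igfbp4 they were Lonrf3 and Adrbk2 (r = 0.97 each), for Igfbp5 Pik3cg (0.95) and Ttc33 (0.92), and for Igfbp2 Cisd3 (0.92) and 2510039O18Rik (0.90). For Igf1r they were 2610507B11Rik (0.97) and Tbl2 (0.94), and for Igf1 Tmem106b (0.93) and Pkp4 (0.93). For Igf2 they were Fer1l5 (0.88) and Cml1 (0.84), and for Igfbp6 Ndufs7 (0.91) and Tfpt (0.90). Among the members themselves r was -0.89 between Igfbp3 and Igfbp4, -0.83 between Igfbp3 and Igfbp7, and 0.74 between Igfbp4 and Igfbp7, while Igfbp2 and its neighbour Igfbp5 had r = 0.0058.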

How the data were processed

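RNA of lens capsules with attached epithelial cells was sequenced in 12 libraries, 3 for each genotype and time, which the design text calls biological triplicates; per the labels' protocols, total RNA was made into stranded TruSeq libraries. The authors deposited whole-number read counts for 24147 genes in each library, with gene coordinates and a length. The submitters' processing notes name the mm10 build and, without order or options, HTSeq 0.6.1p1, TopHat2 2.1.0, edgeR 3.16.5, bedtools 2.17, SAMtools 1.4, Trim Galore 0.4.4 and FastQC. The sources used here give neither annotation nor strand setting. An RPKM column was also deposited, which served only as a check (largest relative difference from counts over length and library total 5.3e-15). Because the strand setting is not given, Igf2 and its antisense gene cannot be fully told apart.

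Tests used edgeR 4.0.16 under R 4.3.3. The filterByExpr rule removed genes of low count, libraries were scaled by TMM (factors 0.754 to 1.165), and robust quasi-likelihood fits of 4 group means to the 12 libraries gave F tests, adjusted by Benjamini-Hochberg across the 14560 genes kept. CPM are TMM-scaled and RPKM here are these CPM per kilobase of the deposited length. An SE is the log2 value divided by the square root of F, an approximation, and intervals are at 95% from it. Depth was 8368160 to 10862573 counts, and a count of 0 allows up to 3 counts, for counting error only. The 6 comparisons were checked on simulated counts first. The members and gene lists were chosen with earlier results of these data known. All members are named; list genes may be named where they pass; the most alike genes are the 2 with the highest r, and those of Igfbp3 are not reported here. A combined table deposited with the series has 9 count columns, of which 8 equal the library they name; the one named for WT 0 h replicate 1 equals FNcKO 0 h replicate 1 in 24147 genes, so the separate library files were used. Same-numbered replicates were not paired. DESeq2 1.42.0, other scalings, no filter, fits of the compared groups only, a replicate block, the combined column and leaving out each library were the alternatives. Promoters are from RefSeq (GRCm38.p6).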

Additional observations from a re-analysis of the deposited data

How the results depend on the processing

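In each comparison the number of members past the threshold stayed within 1.5 times under size factors by the median of ratios and without a filter. With total counts, which move the median of all genes by 0.286 in FNcKO and 0.226 in WT over time, 82.4% and 76.3% of the genes called over time were higher, 3 members passed over time in FNcKO, and 10 genes passed between genotypes at 0 h. DESeq2 called 122 genes between genotypes at 48 h, 130 at 0 h, 288 averaged and 28 for the difference of responses, of which 1 was a member. Fits of the compared groups only, which cannot be made for the average or the difference, called 7 genes at 48 h. With the combined column for WT 0 h replicate 1, and FNcKO 0 h replicate 1 left out, 9 genes passed at 48 h and 0 at 0 h and averaged, with 0 members in both; Igfbp2 was then 1.29 at 0 h on the log2 scale (edgeR, adjusted p = 0.564).

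Same-numbered libraries deviated together in 4 of 18 pairs (r over 0.1; range -0.474 to 0.291), so the numbers were not taken as pairs. With a replicate block 1 gene passed for the difference of responses, and the fall of Igfbp2 in FNcKO was -0.84 (edgeR, adjusted p = 0.0737) and that of Igf1 -0.93 (0.0531).

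Signs turned for values that had not passed. With total counts Igf1r over time in FNcKO was 0.21, and averaged between genotypes Igf2 was -0.016 and Igf1r -0.055. With the combined column Igf1r over time in FNcKO was 0.092, Igf1 at 0 h 0.087, Igfbp5 averaged 0.12, Igf1r averaged -0.047 and the Igfbp3 difference of responses 0.11; Igfbp2 over time in WT, which had passed, was -0.013. The combined column holds the counts filed as FNcKO 0 h replicate 1, so that setting moved the WT 0 h group toward FNcKO by construction. Other causes were not tested.

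With 1 library left out at a time, the members past the threshold numbered 3 to 6 over time in FNcKO, 4 to 6 over time in WT, 0 between genotypes at 48 h, 0 to 1 between genotypes at 0 h, 1 to 2 between genotypes averaged, 0 to 1 for the difference of responses. All genes past it numbered 2232 to 4095 over time in FNcKO, 3209 to 5220 over time in WT, 10 to 46 between genotypes at 48 h, 2 to 28 between genotypes at 0 h, 34 to 81 between genotypes averaged, 0 to 1 for the difference of responses. Log2 values whose sign turned, none past the threshold, ran as follows. Over time in FNcKO they were Igf1r -0.30 to 0.10, Igf2 -0.17 to 0.45, Igfbp6 -0.93 to 0.44. Between genotypes at 48 h they were Igf1 -0.36 to 0.19, Igfbp3 -0.070 to 1.02, Igfbp6 -0.88 to 0.30. Between genotypes at 0 h they were Igf1 -0.47 to 0.18, Igf1r -0.26 to 0.11, Igfbp4 -0.45 to 0.021, Igfbp5 -0.37 to 0.69, Igfbp6 -0.064 to 1.35. Between genotypes averaged they were Igf1 -0.32 to 0.068, Igf1r -0.013 to 0.16, Igf2 -0.086 to 0.26, Igfbp5 -0.52 to 0.022, Igfbp6 -0.32 to 0.65. For the difference of responses they were Igf1 -0.36 to 0.30, Igfbp3 -0.98 to 0.10. Depth limits Igfbp6, H19, Igfbp3 and Socs2 at 0 h, and Stc2 at 48 h.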
